A study of Mus musculus with 20 samples.

Results

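The blood-spinal cord barrier is formed by endothelial cells that seal the gaps between them with tight junctions, carry out little vesicular transport, and move nutrients and drugs through dedicated carriers and pumps. Wnt/beta-catenin signals from the surrounding neural tissue are known to keep these features, and spinal cord injury (SCI) opens the barrier. The levels of 10 genes of this barrier, chosen by symbol from the 16003 genes of the count table, are described here in every cell cluster and library, with stress on cluster 2. *Cldn5* encodes claudin-5, the main sealing claudin of brain and cord capillaries, *Ocln* occludin, a second strand protein, and *Tjp1* the scaffold ZO-1. *Cdh5* encodes VE-cadherin of the adherens junction and *Pecam1* the adhesion molecule CD31, both of endothelium in general. *Slc2a1* encodes the glucose carrier GLUT1, *Slco1a4* an organic anion carrier, *Abcb1a* the efflux pump P-glycoprotein and *Mfsd2a* a carrier of lipid-bound docosahexaenoic acid that also limits vesicular transport. *Ly6c1* encodes a surface antigen of endothelium and of some leukocytes. All 10 are protein-coding in GENCODE vM21 and all 10 had UMIs in cluster 2 of every library.

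The data are single-cell RNA-seq counts of dissociated, unperfused cord, 1 cm around the T9 site, from female C57BL/6J mice of 8 to 10 weeks. Mice ate Vehicle chow or chow with PLX5622 at 1200 ppm, an inhibitor of the Csf1 receptor that depletes microglia, from 2 weeks before surgery to the end. Surgery was a T9 laminectomy (sham) or a laminectomy with a T9 contusion, and cells were taken at 7 or 28 days post-injury (dpi). The 6 libraries were sham Vehicle, 7 dpi Vehicle, 28 dpi Vehicle, sham PLX5622, 7 dpi PLX5622 and 28 dpi PLX5622. No day post-injury is set for either sham library, so each serves as the reference of both times. Each library was 1 pool of 3 to 4 mice, so a condition had no replicate, and no test between conditions was made. The question put to these libraries was how barrier genes differed after SCI and with microglia depleted, gene by gene.

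Libraries held 492 to 9846 cells with a median of 2268.5 to 5127 UMIs, and 88 of the 21016 cells carried a barcode also seen in another library. The methods state a maximum of 3000 genes per cell, yet 716 cells were above it, 98 of them in cluster 2. Levels are in CPM, counts of a gene summed over the cells of a cluster and library and scaled to a total of 1000000 UMIs of those cells. Intervals are exact at 95% and cover counting error only, not the spread between mice. Cluster 2 held 82, 351 and 420 cells in the sham, 7 dpi and 28 dpi Vehicle libraries and 76, 81 and 65 in the PLX5622 libraries, with 232514 to 1418075 UMIs. All 6 endothelial markers outside the 10 genes (*Flt1*, *Kdr*, *Tek*, *Tie1*, *Egfl7*, *Emcn*) and 18 of 20 pan-endothelial genes were highest in cluster 2, so it is called endothelial-like.

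Promoters are shown for *Cldn5*, *Slco1a4*, *Abcb1a* and *Mfsd2a*, which were all lower after SCI under Vehicle, and for *Tjp1*, which was not. The sequences are RefSeq's on GRCm38.p6, 250 bases before to 50 after the start site, written on the gene's strand from 5′ to 3′. RefSeq's table had 8 of the 10 genes. Capitals mark any of 9 motifs searched on both strands. For Wnt effectors of the TCF/LEF family the letters CTTTGA were searched, for SOX factors ACAATG, and for forkhead (FOX) factors TAAACA. ETS factors, of which several act in endothelium, were searched as CCGGAA and in a longer form as ACTTCCG, and the blood and endothelial GATA factors as AGATAA. The general promoter elements searched were the TATA box as TATAAA, the GC box as GGGCGG and the CCAAT box by its name.
Cldn5, chr16:18776597-18776896, plus strand: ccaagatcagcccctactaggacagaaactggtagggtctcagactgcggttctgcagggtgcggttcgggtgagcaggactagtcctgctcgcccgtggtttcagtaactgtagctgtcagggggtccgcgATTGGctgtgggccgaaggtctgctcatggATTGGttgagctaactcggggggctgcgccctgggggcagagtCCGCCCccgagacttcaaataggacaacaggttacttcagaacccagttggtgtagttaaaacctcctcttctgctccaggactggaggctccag
Slco1a4, chr6:141856171-141856470, minus strand: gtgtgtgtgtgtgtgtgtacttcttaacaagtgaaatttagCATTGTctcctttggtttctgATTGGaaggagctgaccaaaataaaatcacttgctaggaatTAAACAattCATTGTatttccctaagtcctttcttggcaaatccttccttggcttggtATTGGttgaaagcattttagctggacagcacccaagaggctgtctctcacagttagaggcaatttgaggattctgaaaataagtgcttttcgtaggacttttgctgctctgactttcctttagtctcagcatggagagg
Abcb1a, chr5:8566841-8567140, plus strand: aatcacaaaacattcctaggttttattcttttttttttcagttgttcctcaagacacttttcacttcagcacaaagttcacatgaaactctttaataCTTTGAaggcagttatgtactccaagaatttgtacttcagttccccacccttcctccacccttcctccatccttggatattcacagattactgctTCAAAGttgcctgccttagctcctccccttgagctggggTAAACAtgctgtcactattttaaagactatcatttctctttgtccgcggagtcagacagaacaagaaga
Mfsd2a, chr4:122961139-122961438, minus strand: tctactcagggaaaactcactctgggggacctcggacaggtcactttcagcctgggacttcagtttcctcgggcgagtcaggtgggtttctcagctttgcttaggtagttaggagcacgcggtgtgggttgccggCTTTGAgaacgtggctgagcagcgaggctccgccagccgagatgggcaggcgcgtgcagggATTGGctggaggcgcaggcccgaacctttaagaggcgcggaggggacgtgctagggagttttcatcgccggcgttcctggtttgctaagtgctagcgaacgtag
Tjp1, chr7:65371195-65371494, minus strand: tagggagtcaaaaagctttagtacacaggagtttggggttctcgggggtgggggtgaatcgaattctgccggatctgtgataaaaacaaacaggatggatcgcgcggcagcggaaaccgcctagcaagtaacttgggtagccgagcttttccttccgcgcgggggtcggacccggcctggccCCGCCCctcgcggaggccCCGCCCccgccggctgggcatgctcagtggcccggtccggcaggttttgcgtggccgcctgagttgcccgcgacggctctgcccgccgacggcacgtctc

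A TCF/LEF match was in the *Abcb1a* and *Mfsd2a* windows and in 16% of all 32851 promoters of the table. SOX matches stood in the *Slco1a4* window and in 12.6% of all promoters, and FOX matches in those of *Slco1a4*, *Abcb1a* and *Ly6c1* against 13.4%. The *Tjp1* window held GC boxes only, which 35.7% of promoters had, and *Cldn5* 2 CCAAT boxes and a GC box. The RefSeq start of *Abcb1a* lies 92986 bases from the 5′ end of the GENCODE gene, that of *Tjp1* 156537 bases, and those of *Cldn5* and *Mfsd2a* at it, and 3′ counts do not tell which start was used. On GRCm38 the genes span chr16:18776847-18778262 (*Cldn5*), chr6:141805440-141856199 (*Slco1a4*), chr5:8660077-8748575 (*Abcb1a*), chr4:122946850-122961188 (*Mfsd2a*) and chr7:65296165-65527781 (*Tjp1*). *Ocln* lies at chr13:100496507-100552718, *Slc2a1* at chr4:119108711-119137983, *Pecam1* at chr11:106654217-106750628, *Cdh5* at chr8:104101625-104144511 and *Ly6c1* at chr15:75044018-75048830.

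Of the 10 genes, 9 had their highest mean level in the endothelial-like cluster and were highest there in all 6 libraries, and *Mfsd2a* was the exception. The authors' clusters were made from genes of the same cells, so these levels are a description and not a test. *Cldn5* had 97.3% of its 20760 UMIs in cluster 2, with a mean of 5392 CPM over libraries against 144 CPM in cluster 12, 34.9 in oligodendrocyte lineage-like cells and less in each other cluster. Cluster 12 was left unnamed, since it was led by *Pi16*, *Lum* and *Aspn* and had the highest level of 7 of 7 mural and 5 of 7 fibroblast markers. *Slco1a4* had 96.8% of its UMIs in cluster 2 and *Ly6c1* 95.8%. The 2 genes were next highest in cluster 12, at 55.4 CPM for *Slco1a4* and 707 CPM for *Ly6c1*.

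**Figure D1:**
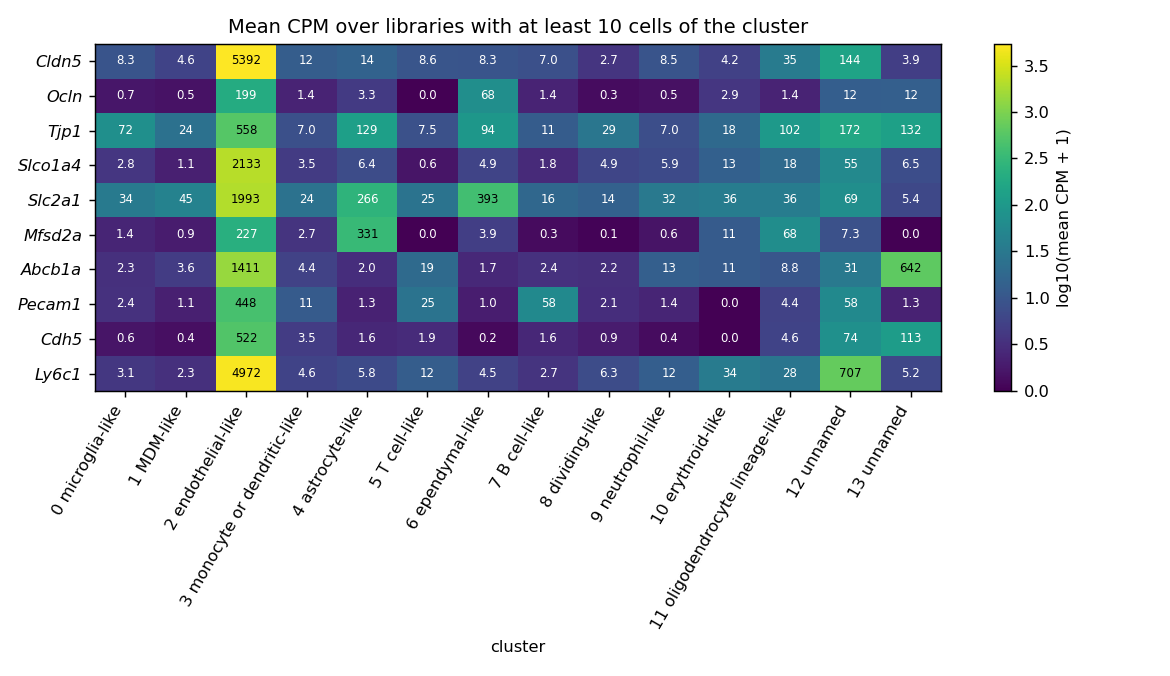
Mean CPM of each of the 10 genes (rows) in each of the 14 clusters (columns) over the libraries with at least 10 cells of the cluster, with the colour on a log10 axis. Cluster 2 was highest for 9 genes, and for *Mfsd2a* the astrocyte-like cluster 4 was at 331 CPM against 227 in cluster 2.

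The junction and adhesion genes had wider second sites. *Ocln* had 199 CPM in cluster 2 and 68.5 CPM in ependymal-like cells, whose range of 52.4 to 88.7 lay below every cluster 2 value and above every other cluster with at least 10 cells. *Tjp1* was the least restricted, with 43.2% of its 5212 UMIs in cluster 2. It had 558 CPM there and means of 172, 132, 129, 102 and 93.7 CPM in clusters 12 and 13, astrocyte-like, oligodendrocyte lineage-like and ependymal-like cells, neighbours in an order whose ranges overlap. *Cdh5* had 113 CPM in cluster 13 against 522 in cluster 2. *Pecam1* had 57.9 CPM in B cell-like and 25.1 CPM in T cell-like cells against 448 in cluster 2, as a gene that leukocytes also carry.

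The transporters split the same way. *Slc2a1* had 1993 CPM in cluster 2, 393 in ependymal-like and 266 in astrocyte-like cells, the last 2 with overlapping ranges. *Abcb1a* had 1411 CPM in cluster 2 and 642 in cluster 13, which is led by *Slc47a1*, *Rspo3* and *Smoc2* and was left unnamed, having only 2 of 7 fibroblast markers at their highest. In cluster 13 *Cldn5* and *Slco1a4* were at 3.9 and 6.5 CPM. *Mfsd2a* had 51.7% of its 1864 UMIs in astrocyte-like cells and 42.5% in cluster 2, with ranges over libraries that overlap, and 67.6 CPM in oligodendrocyte lineage-like cells.

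In endothelial-like cells of Vehicle-fed mice, most barrier genes were lower after SCI than in sham, and *Tjp1* was not. At 7 dpi 9 of 10 genes had a counting interval below 0 and 1, *Tjp1*, above it, where 14.6% of 8180 genes lay below and 7.73% above. Only 3038 of these 8180 genes had at least 100 UMIs in the 2 libraries together, as all 10 members had. Deeper counts have narrower intervals, so here and in each comparison below the members clear 0 more easily than most genes. At 28 dpi 9 of 10 lay below, against 13.1% of 7146 genes, and *Tjp1* spanned 0, with no gene above it against 7.84%. The median log2 ratio of the 10 was -0.68 at 7 dpi and -0.74 at 28 dpi, beside -0.14 and -0.15 for all genes tested, a shift that TMM factors take out by adding 0.15 to every ratio at either time. A 2-fold lower level was reached by *Ocln* at 7 dpi, 1 of 10 against 7.73% of genes, and by none at 28 dpi against 6.66%. None was 2-fold higher at either time, where 9.46% and 7.86% of genes were.

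Other transcripts in cluster 2 moved with these values. A list of 12 myeloid genes (*C1qa*, *C1qb*, *C1qc*, *Tyrobp*, *Fcer1g*, *Ctss*, *Cd68*, *Aif1*, *Csf1r*, *Laptm5*, *Lyz2*, *Ctsd*) summed to 1850.5 CPM in cluster 2 of sham Vehicle, 13664 at 7 dpi and 16854 at 28 dpi, and to 359, 2533 and 2783 CPM under PLX5622. None of the 12 was at 0 over the libraries. Cells with at least 1% of their UMIs in this list were 3 of 82, 57 of 351 and 85 of 420 under Vehicle and 0 of 76, 5 of 81 and 1 of 65 under PLX5622. Such cells of the 7 dpi Vehicle library had 1716 CPM of *Cldn5* against 5735 in the others. Without them, the median of the 10 genes was -0.36 at 7 dpi and -0.40 at 28 dpi, and 9 of 10 log2 ratios were negative at each time. Only 7 of 10 counting intervals lay below 0 at 7 dpi and 5 of 10 at 28 dpi. Shares of all genes are not given for this filter. MDM markers were at 104 CPM in sham Vehicle and 7312 and 3957 CPM at 7 and 28 dpi, mural markers at 97.1, 870 and 2252 CPM. Neutrophil markers also differed, at 3530 CPM in sham Vehicle, 2205 and 371 CPM at 7 and 28 dpi Vehicle and 14.2 to 51.6 CPM under PLX5622, and the part of these cell types in the values was not tested.

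A second scale was the summed UMIs of 20 pan-endothelial genes, which were themselves lower by a log2 ratio of -0.56 at 7 dpi and -0.62 at 28 dpi Vehicle. Intervals on this scale take that sum as fixed and leave out its own counting error, so they are too narrow. Per reference UMI the median of the 10 was -0.12 at both times. The counting interval stayed below 0 at both times for *Slco1a4* and *Abcb1a* alone, at 7 dpi also for *Ocln* and *Slc2a1*, and at 28 dpi also for *Cldn5*. *Tjp1* was above 0 at both. On this scale 7 of 10 ratios were negative at 7 dpi and 6 of 10 at 28 dpi, with no share of all genes to set beside them. Fewer endothelial transcripts per cell, more transcripts of other cells in droplets and a changed mix of cells cannot be told apart by CPM. In the paper, the endothelial cells included a perivascular macrophage subset, which grew after SCI under Vehicle but not in mice without microglia. Its part in the values here was not tested.

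**Figure D2:**
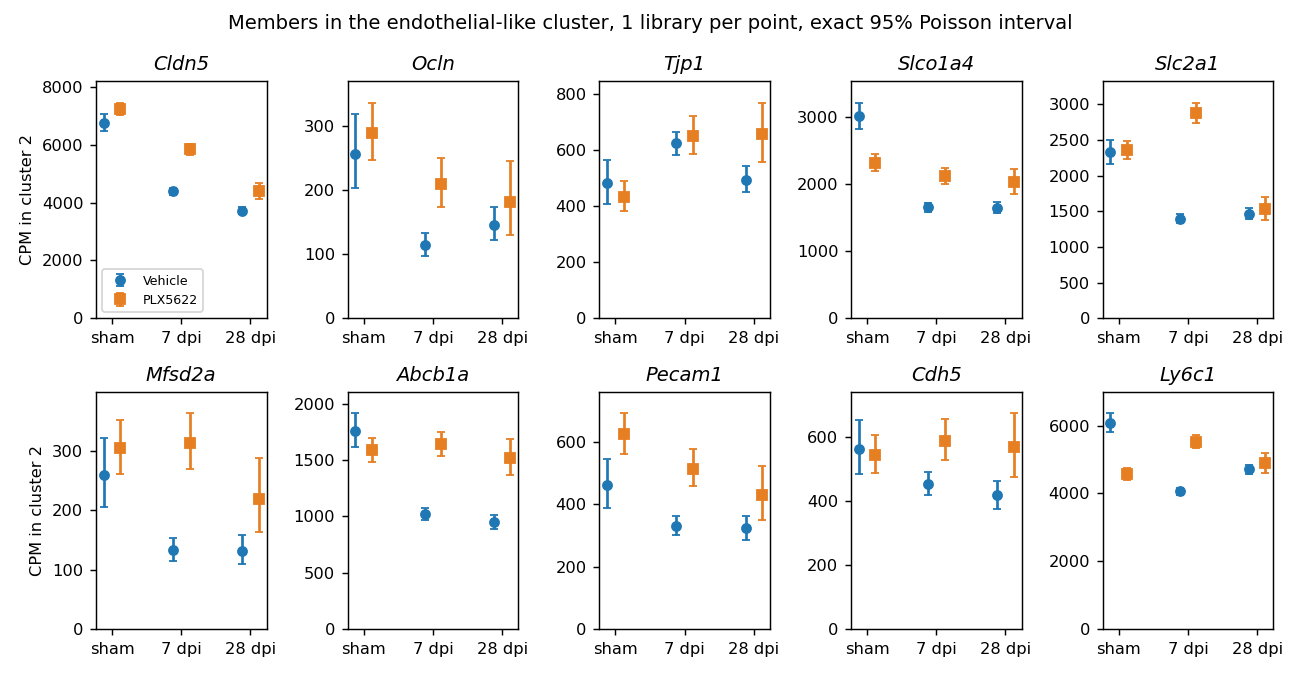
CPM of each gene in the endothelial-like cluster of the 6 libraries, 1 library per point (circles Vehicle, squares PLX5622) with exact 95% Poisson intervals and axes from 0. At 7 dpi *Slc2a1* stood at 1393 CPM under Vehicle and 2879.8 under PLX5622, while *Tjp1* was at 625 and 653 CPM, an order that turned per reference UMI and in cells under 1% of myeloid list UMIs.

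Tight junction genes took both directions. *Cldn5* stood at 6765, 4390.5 and 3722 CPM in the sham, 7 dpi and 28 dpi Vehicle libraries and at 7243, 5841 and 4391 CPM under PLX5622. Both injured Vehicle libraries were below both sham libraries, with log2 ratios of -0.62 (interval -0.70 to -0.55) at 7 dpi and -0.86 (-0.94 to -0.78) at 28 dpi. Under PLX5622 the ratios were -0.31 (-0.38 to -0.24) and -0.72 (-0.82 to -0.62). The *Cldn5* interval lay below 0 in all 4 injury comparisons in CPM and in cells under 1% of myeloid list UMIs. Per reference UMI it was -0.06 with an interval to 0.01 at 7 dpi Vehicle.

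*Ocln*, counted 42 to 170 times per library, had 256, 114 and 145 CPM under Vehicle and 289, 209 and 181 CPM under PLX5622. Its 7 dpi Vehicle ratio of -1.17 (-1.57 to -0.76) was the lowest of the 10 genes in that comparison, and -0.79 without the cells of at least 1% myeloid UMIs. *Ocln* was lower than in sham in all 4 injured libraries. *Tjp1* had 482, 625 and 496 CPM under Vehicle and 433, 653 and 658 CPM under PLX5622. The scaffold gene was the 1 member above sham at 7 dpi in both diets, by 0.37 (0.12 to 0.63) and 0.59 (0.36 to 0.83), and at 28 dpi under PLX5622 by 0.60 (0.30 to 0.90). Per reference UMI these 3 ratios were 0.94, 0.69 and 0.98, so no scale turned their direction.

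The general endothelial genes *Cdh5* and *Pecam1* were the members nearest to sham among those lower at 7 dpi under Vehicle. *Cdh5* had 563, 453 and 417 CPM under Vehicle and 544, 588 and 568 CPM under PLX5622. Its Vehicle ratios of -0.31 (-0.56 to -0.06) and -0.43 (-0.70 to -0.17) turned to 0.25 and 0.18 per reference UMI and to 0.27 and 0.20 when each cell was thinned to 1000 UMIs. Both PLX5622 intervals, around 0.11 and 0.06, spanned 0. *Pecam1* had 463, 331 and 323 CPM under Vehicle and 625, 515 and 430.1 CPM under PLX5622. The ratio to sham was -0.48 (-0.75 to -0.20) and -0.52 (-0.81 to -0.22) under Vehicle, turned to 0.08 and 0.10 per reference UMI, and was -0.28 (-0.51 to -0.05) and -0.54 (-0.87 to -0.22) under PLX5622.

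Carriers and the pump were lower under Vehicle at both times. *Slco1a4* had 3018, 1653 and 1650.2 CPM under Vehicle and 2323, 2122 and 2030.0 CPM under PLX5622. Its Vehicle ratios were -0.87 (-0.98 to -0.76) and -0.87 (-0.99 to -0.75), against -0.13 (-0.24 to -0.02) and -0.19 (-0.35 to -0.04) under PLX5622, where the first turned to 0.02 in cells with fewer than 3 myeloid list UMIs and the second to 0.18 per reference UMI. *Abcb1a* had 1760, 1019 and 946 CPM under Vehicle, with ratios of -0.79 (-0.93 to -0.64) and -0.90 (-1.05 to -0.74). Under PLX5622 the pump gene was at 1586, 1637 and 1518 CPM, and both intervals, around 0.05 and -0.06, spanned 0, with a sign that turned with the scaling.

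*Slc2a1* had 2326, 1393 and 1465 CPM under Vehicle and 2359, 2879.8 and 1535 CPM under PLX5622. The glucose carrier gene was thus lower than sham at 7 dpi under Vehicle, by -0.74 (-0.86 to -0.61), and higher under PLX5622, by 0.29 (0.18 to 0.39). Both directions stood per reference UMI, at -0.18 and 0.39. At 28 dpi *Slc2a1* was lower under both diets, by -0.67 (-0.80 to -0.53) and -0.62 (-0.79 to -0.45). Per reference UMI the Vehicle ratio was -0.05 (-0.18 to 0.08), which spans 0, and that of PLX5622 -0.24 (-0.41 to -0.07). *Mfsd2a*, counted 51 to 189 times, had 259, 133 and 132 CPM under Vehicle and 304, 313 and 219 CPM under PLX5622. Its Vehicle ratios were -0.96 (-1.34 to -0.56) and -0.97 (-1.40 to -0.54), and per reference UMI both intervals reached 0.

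*Ly6c1* differed between the diets in sham already, at 6085 CPM under Vehicle and 4563 under PLX5622. It had 4066 and 4707 CPM at 7 and 28 dpi Vehicle and 5521 and 4890.0 CPM under PLX5622. The ratio at 7 dpi was -0.58 (-0.66 to -0.51) under Vehicle and 0.27 (0.20 to 0.35) under PLX5622. At 28 dpi the Vehicle ratio of -0.37 turned to 0.25 per reference UMI.

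**Figure D3:**
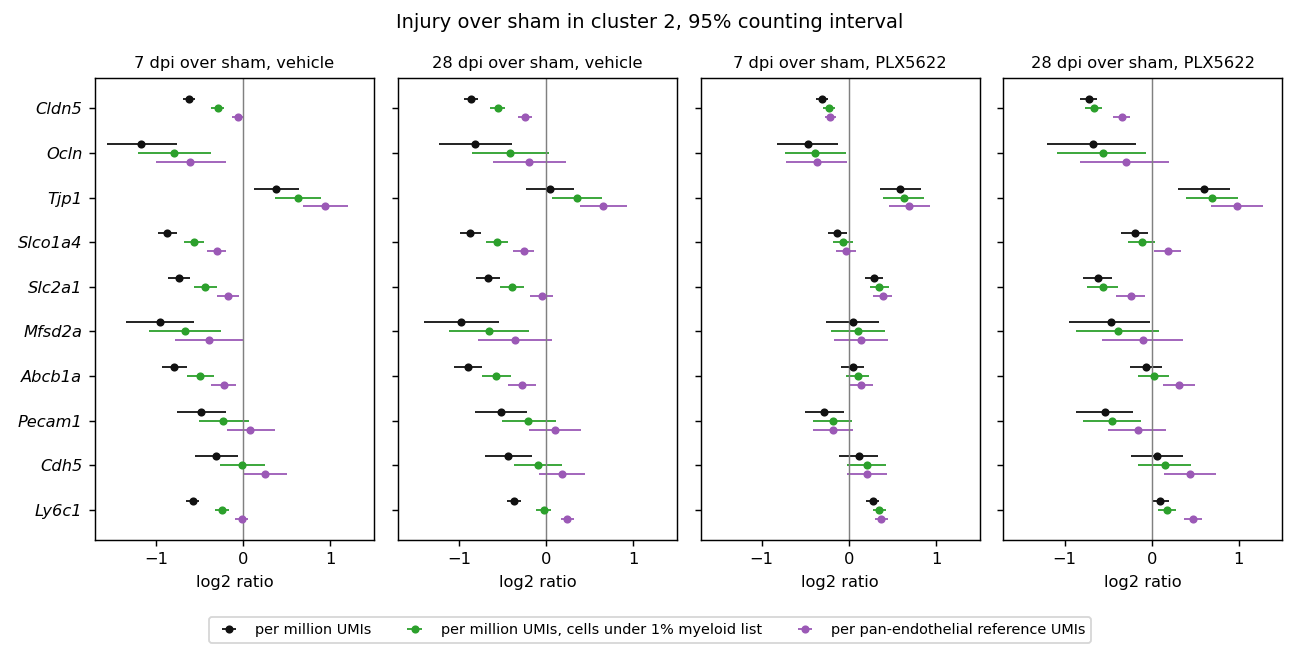
Log2 ratio of SCI over sham in cluster 2 for each gene and diet, on 3 scales (CPM in black, CPM in cells with under 1% of UMIs in the myeloid list, and per pan-endothelial reference UMI), with 95% counting intervals. Under Vehicle 9 of 10 black points lie left of 0 at each time with medians of -0.68 and -0.74, the reference scale moves these medians to -0.12 and turns *Pecam1* and *Cdh5* at both times and *Ly6c1* at 28 dpi, and *Tjp1* lies right of 0 in every panel.

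Under PLX5622 the 10 genes as a group lay near sham at 7 dpi. The median ratio was 0.04, beside -0.11 for 7070 genes, with 4 genes below 0 (*Cldn5*, *Ocln*, *Slco1a4*, *Pecam1*) and 3 above (*Tjp1*, *Slc2a1*, *Ly6c1*) by interval, where 10.2% and 6.78% of genes were. At 28 dpi the median was -0.33, beside -0.12, with 6 of 10 below against 8.23% of 6087 genes and *Tjp1* above against 5.62%. On the reference scale the 28 dpi median was 0.04. No gene was 2-fold lower or higher in either comparison, where 6.08% and 8.15% of genes were 2-fold lower and 2.76% were 2-fold higher at each time. Myeloid list UMIs stood at 2533 and 2783 CPM in these libraries, below the injured Vehicle ones. Mural markers were at 2070.0, 763 and 2860.0 CPM in the sham, 7 dpi and 28 dpi PLX5622 libraries of cluster 2, and monocyte or dendritic markers at 335, 28.3 and 998 CPM, and their part in the ratios was not tested.

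The diets were then set side by side at each time, with the same 6 libraries and thus the same counts as above. In sham 2 genes were lower under PLX5622 by interval, *Slco1a4* at -0.38 (-0.50 to -0.26) and *Ly6c1* at -0.42 (-0.50 to -0.33), and 2 higher, *Cldn5* at 0.10 (0.02 to 0.17) and *Pecam1* at 0.43 (0.15 to 0.72), where 5.46% and 5.97% of 6415 genes were. The sham median was -0.01, and no member was 2-fold lower or higher against 2.90% and 5.57% of genes. Mural markers differed between these 2 sham libraries too, at 97.1 CPM under Vehicle and 2070.0 CPM under PLX5622, and their part was not tested. At 7 dpi all 10 ratios were positive and 9 lay above 0 by interval and none below, against 11.0% and 8.71% of 8507 genes, with a median of 0.54 beside 0.05 for all genes. *Mfsd2a* at 1.23 (0.93 to 1.54) and *Slc2a1* at 1.05 (0.95 to 1.14) were 2-fold higher under PLX5622, 2 of 10 against 3.88%, and no member was 2-fold lower against 7.59%.

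These differences between the diets were smaller on the other scales. The 7 dpi median was 0.28 in cells under 1% of myeloid list UMIs and 0.21 per reference UMI. *Mfsd2a* stayed at 1.01 and 0.90 and *Slc2a1* at 0.76 and 0.72 on these 2 scales. *Tjp1*, at 0.06 in CPM, turned to -0.19 and -0.27. At 28 dpi 7 of 10 genes were above 0 and none below, against 8.06% and 6.16% of 6847 genes, with a median of 0.36. This median was 0.08 in cells under 1% of myeloid list UMIs and 0.01 in cells with fewer than 3 such UMIs. Per reference UMI it was 0.26, with 6 of 10 genes above 0 by interval. No member was 2-fold higher or lower there, against 4.59% and 8.22%. *Cldn5*, at 0.24, turned to -0.07 in cells under 1%, as did *Slc2a1* (0.07 to -0.19) and *Ly6c1* (0.05 to -0.24). *Abcb1a*, at 0.68 (0.50 to 0.86), and *Mfsd2a*, at 0.73 (0.23 to 1.22), were the farthest from 0, and were 0.40 and 0.51 in cells under 1%.

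Further genes of the barrier were read from lists chosen with earlier results of these data known, counting genes with at least 20 UMIs in a pair of libraries. Other carriers and pumps had a median of -0.50 at 7 dpi and -0.71 at 28 dpi over sham under Vehicle. Of their ratios 17 of 20 and 18 of 19 were negative, where all genes had medians of -0.14 and -0.15. Per reference UMI the medians of these carriers and pumps were 0.07 and -0.10. Of these, *Slc6a6*, a taurine carrier, and *Slc19a3*, a thiamine carrier, were 2-fold lower at 7 dpi (-1.16 and -1.28), 2 of 20 against 7.73% of all genes. At 28 dpi *Slc16a1*, *Slc38a5* and *Tfrc* were, 3 of 19 against 6.66%, the transferrin receptor gene *Tfrc* with -1.63. *Slco1c1*, a thyroid hormone carrier, had 1744, 939 and 912 CPM under Vehicle and 1529.5, 1455 and 1338 CPM under PLX5622, and *Abcg2*, a second efflux pump, 1191, 815 and 785 CPM and 1003, 1122 and 968 CPM. *Slc7a5*, a carrier of large neutral amino acids, had ratios of -0.11 and -0.24 under Vehicle. *Insr*, the insulin receptor gene, was the highest of the list at 0.59 and 0.37.

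Tight junction partners were nearer to sham, with medians of -0.32 and -0.36 under Vehicle over 13 and 12 genes. None was 2-fold lower, where 7.73% and 6.66% of all genes were. *Magi1* was 2-fold higher at 7 dpi, 1 of 13 against 9.46% of all genes. *Lsr*, a protein of tricellular junctions, had -0.79 and -0.94, *F11r*, which encodes the adhesion molecule JAM-A, -0.88 and -0.66, and *Ctnnb1*, beta-catenin, -0.62 and -0.46. *Esam* had -0.45 and -0.83. *Cgnl1*, a scaffold protein like *Tjp1*, had 0.29 at 7 dpi and -0.07 at 28 dpi. Per reference UMI the medians of this list were 0.24 and 0.25, so its direction rests on the scale.

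Wnt and barrier program genes had medians of -0.69 and -0.62 under Vehicle, with 18 of 19 and 18 of 18 ratios negative. The medians of all genes were also negative there, at -0.14 and -0.15. Per reference UMI the medians of the list were -0.12 and -0.0075. *Fzd4*, *Lrp5*, *Reck* and *Sox18* were 2-fold lower at 7 dpi, 4 of 19 against 7.73% of all genes, and none at 28 dpi against 6.66%. *Sox18*, an endothelial transcription factor, had 320, 95.9 and 166 CPM under Vehicle and 401, 349 and 426 CPM under PLX5622. *Sox17* had -0.86 and -0.98, *Lef1*, a Wnt effector, -0.48 and -0.70, *Foxq1* -0.23 and -0.60, and *Ndrg1* -0.77 and -0.41. Under PLX5622 the medians of this list were -0.07 and -0.11 with no gene 2-fold from sham. Of all genes 6.08% and 8.15% were 2-fold lower and 2.76% 2-fold higher at each time.

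For the 6 measured genes of caveolae the median was -0.76 at 7 dpi under Vehicle. *Cav1* (-1.17) and *Cav2* (-1.73) were 2-fold lower, 2 of 6 against 7.73% of all genes. *Ptrf* and *Sdpr*, which encode cavins, had -0.79 and -0.72. At 28 dpi the median over 8 measured genes of the list was -0.54, beside -0.15 for all genes, with 6 ratios negative. *Cav2* was 2-fold lower (-1.47), 1 of 8 against 6.66% of all genes. *Plvap* and *Aqp1*, listed as markers of leaky vessels, were 2-fold higher, 2 of 8 against 7.86%. For 1 of these 8 genes, not named here, a library had no UMI, so its ratio rests on the floor. A call among the 8 may thus be a bound. Per reference UMI the median was 0.079. Capillary markers had a median of -0.96 at 7 dpi. *Rgcc*, *Car4* and *Cxcl12* were 2-fold lower (-1.90, -1.13 and -1.37), 3 of 6 against 7.73% of all genes. *Itm2a* and *Spock2* were at -0.65 and -0.04. Arterial markers had -1.48, with *Vegfc*, *Gkn3*, *Efnb2* and *Stmn2* 2-fold lower, 4 of 7 against 7.73% of all genes. *Gja4* was 2-fold higher, 1 of 7 against 9.46%, and *Hey1* and *Bmx* were at -0.52 and 0.02. Venous markers had 0.29, with *Tmsb10* at 0.75, *Vwf* at 0.66 and *Nr2f2* at 0.29, and *Ephb4* at -0.61. These vessel-type markers thus differed between libraries of cluster 2, and their part in the values of the 10 genes was not tested.

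The pan-endothelial list had a median of -0.59 at 7 dpi and -0.74 at 28 dpi under Vehicle, near that of the barrier genes. *Emcn*, *Clec14a* and *Cd34* were 2-fold lower at 7 dpi, 3 of 20 against 7.73% of all genes. At 28 dpi *Clec14a* and *Erg* were, 2 of 20 against 6.66%. *Flt1* had -0.84, *Egfl7* -0.62, *Ptprb* -0.22, *Ramp2* -0.16, *S1pr1* -0.44 and *Ecscr* 0.21 at 7 dpi. Activation and adhesion genes had 0.22 and angiogenic genes 0.38 at 7 dpi under Vehicle, with *Lcn2* at 1.87, *Socs3* at -1.81 and *Angpt2* at -1.06. *Nfkbia* had -0.73, *Sparc* 0.41, *Col4a1* 0.38 and *Col4a2* 0.56. At 7 dpi *Lrg1* had 98.0 CPM under Vehicle and 352 under PLX5622, and *Ch25h* 31.7 and 205. The activation list had a median of 1.37 there for PLX5622 over Vehicle. In it 7 of 10 genes were 2-fold higher against 3.88% of all genes, and 1 of 10, *Vcam1*, was 2-fold lower against 7.59%. At 28 dpi the median of this list for PLX5622 over Vehicle was -1.16. Of 6 measured genes 3 were 2-fold lower and 0 higher, against 8.22% and 4.59% of all genes. For 1 of these 6 genes a library had no UMI, so its ratio rests on the floor.

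**Figure D4:**
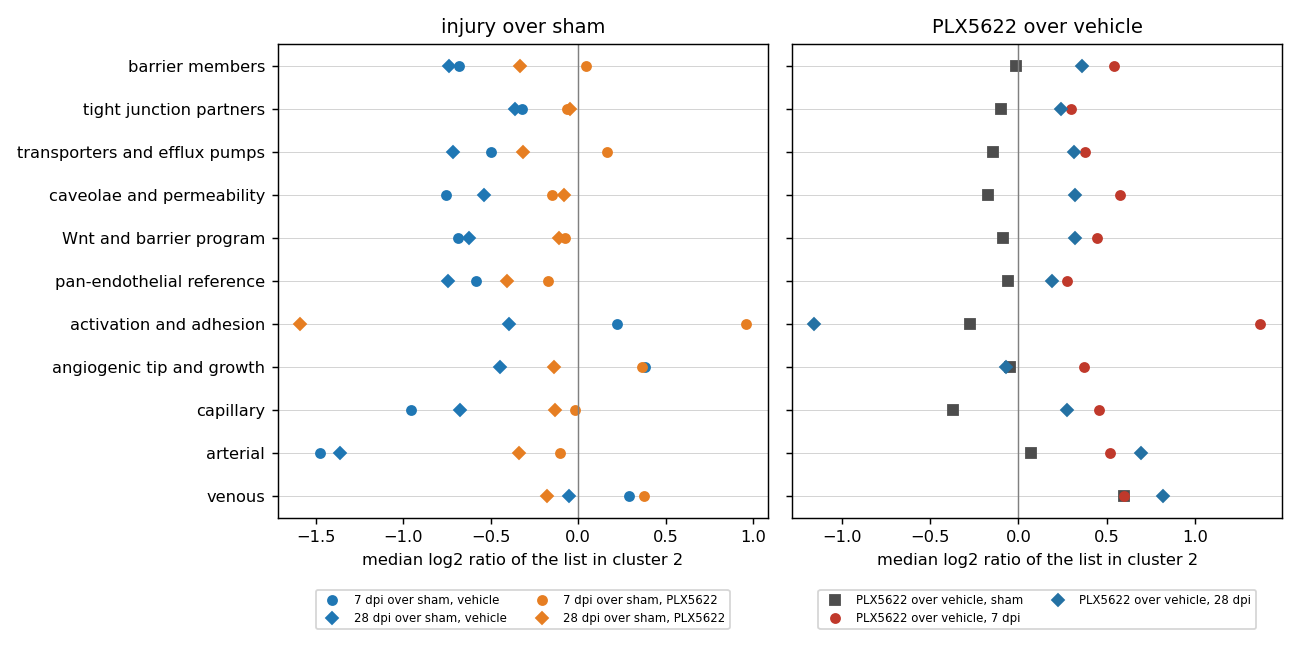
Median log2 ratio in cluster 2 of each gene list, SCI over sham by diet on the left and PLX5622 over Vehicle on the right, in CPM. Under Vehicle the barrier members (-0.68 and -0.74) sit beside the pan-endothelial list (-0.59 and -0.74), and tight junction partners lie nearer to 0 at -0.32 and -0.36 and above 0 per reference UMI.

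Cell by cell, most cells of cluster 2 carried several barrier transcripts. After each cell was thinned to 1000 UMIs, which left 53 to 303 cells per library, the median cell had 5 of the 10 genes at 28 dpi Vehicle and 6 in every other library. At most 1 cell of a library had none. Cells with 5 or more were 89.5% in sham, 78.6% at 7 dpi and 73.3% at 28 dpi under Vehicle, and 94.1%, 88.7% and 88.7% under PLX5622. *Cldn5* was found in 94.4% to 100% of thinned cells and *Ly6c1* in 90.6% to 95.8%, so these stayed near their ceiling. *Mfsd2a* was found in 28.9%, 12.7% and 14.2% under Vehicle and in 29.4%, 28.2% and 20.8% under PLX5622. In T cell-like cells, which should lack the barrier, *Cldn5* was found in 0% to 2.5% and *Mfsd2a* in 0% of thinned cells per library, and unthinned shares are higher for deeper cells.

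Outside the endothelium, *Mfsd2a* and *Slc2a1* had their own pattern in astrocyte-like cells, whose end-feet wrap these vessels. *Mfsd2a* had 534, 59.9 and 145 CPM in cluster 4 of the sham, 7 dpi and 28 dpi Vehicle libraries, from 416, 11 and 60 UMIs, and 681, 190 and 376 CPM under PLX5622. Every injured library was below both sham libraries. Under Vehicle its log2 ratios to sham were -3.16 (-4.17 to -2.30) after 7 days and -1.88 (-2.30 to -1.49) after 28 days. Under PLX5622 they were -1.84 (-2.56 to -1.19) and -0.86 (-1.28 to -0.45). In cluster 4, 29.3% of 6669 genes were 2-fold lower at 7 dpi under Vehicle, 18.6% at 28 dpi, 13.7% at 7 dpi under PLX5622 and 8.89% at 28 dpi.

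*Slc2a1* in the same cells had 453, 98.0 and 128 CPM under Vehicle and 413, 190 and 317 CPM under PLX5622. Its ratios were -2.21 (-2.98 to -1.53) and -1.82 (-2.27 to -1.40) under Vehicle, and -1.12 (-1.85 to -0.46) and -0.38 (-0.86 to 0.07) under PLX5622. Myeloid list transcripts in cluster 4 were at 2498 CPM in sham Vehicle and at 32729 and 31294 CPM at 7 and 28 dpi, and were 720, 3828 and 2698 CPM under PLX5622. In cells under 1% of such UMIs the *Mfsd2a* ratios were -1.98, -1.01, -1.74 and -0.85 in the order above, and per UMI of the 6 astrocyte markers -2.49, -1.24, -1.81 and -1.08. Those of *Slc2a1* were -1.60, -0.94, -1.02 and -0.36 in cells under 1%, and -1.54, -1.18, -1.09 and -0.61 per astrocyte marker UMI. The *Mfsd2a* difference between the diets at 7 dpi, 1.67 (0.54 to 2.88), was 0.56 (-0.64 to 1.87) in cells under 1%. At 28 dpi it was 1.38 (0.83 to 1.92), and 0.47 (-0.12 to 1.07) in cells under 1%, where 19.4% and 21.9% of genes of cluster 4 were 2-fold higher under PLX5622 at 7 and 28 dpi. Endothelial markers were at 0 to 33.8 CPM in cluster 4, and *Cldn5* at 6.6 to 21.8.

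**Figure D5:**
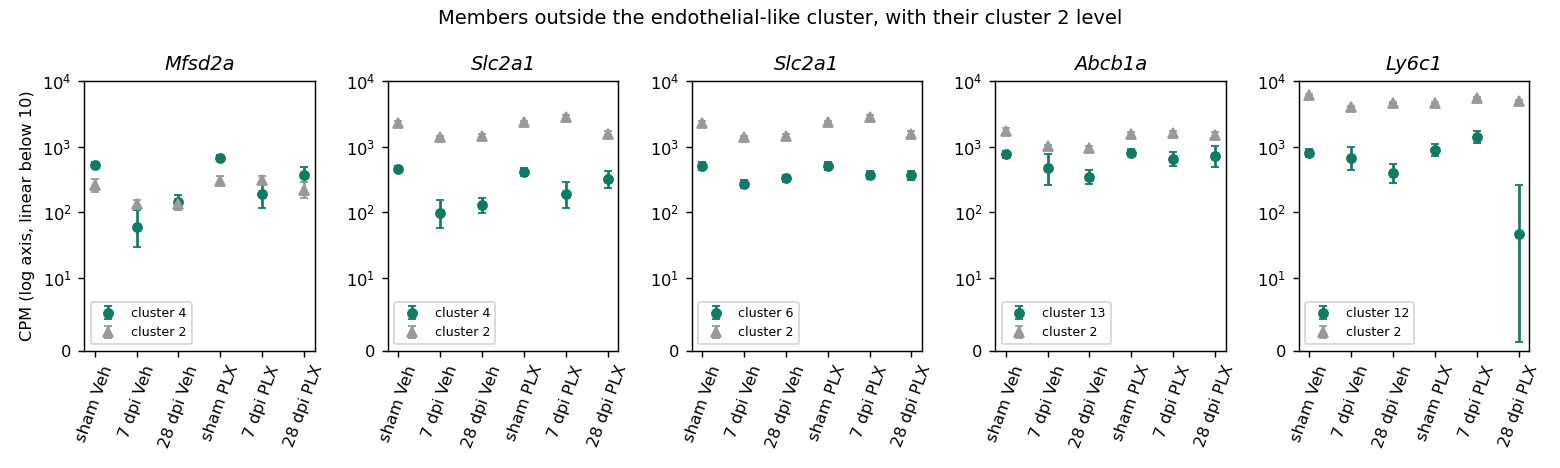
CPM of *Mfsd2a* and *Slc2a1* in astrocyte-like cluster 4, *Slc2a1* in ependymal-like cluster 6, *Abcb1a* in cluster 13 and *Ly6c1* in cluster 12 (green) beside cluster 2 (grey) in each library, on a log axis that is linear below 10, with exact 95% Poisson intervals. *Mfsd2a* in astrocyte-like cells lies above cluster 2 in both sham libraries (534 and 681 against 259 and 304 CPM) and below it at 7 dpi (59.9 and 190 against 133 and 313 CPM).

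In ependymal-like cells *Slc2a1* had 515, 271 and 328 CPM under Vehicle and 513, 365 and 367 CPM under PLX5622. The ratio to sham was -0.93 (-1.22 to -0.63) and -0.65 (-0.92 to -0.38) under Vehicle and -0.49 (-0.78 to -0.20) and -0.48 (-0.81 to -0.16) under PLX5622, where 6.25%, 4.58%, 3.01% and 3.83% of genes were 2-fold lower. *Ocln* had 88.7, 52.4 and 57.2 CPM there under Vehicle and 81.0, 55.5 and 75.9 CPM under PLX5622, from 30 to 44 UMIs per library. Its 7 dpi Vehicle ratio was -0.76 (-1.47 to -0.05), and the other 3 ratios to sham spanned 0, at -0.63 (-1.31 to 0.05) for 28 dpi Vehicle and -0.54 (-1.32 to 0.23) and -0.09 (-0.87 to 0.69) under PLX5622.

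*Abcb1a* in cluster 13 had 760.0, 467 and 344 CPM under Vehicle and 814, 651 and 729 CPM under PLX5622, from 8 to 64 cells. Its 28 dpi Vehicle ratio was -1.14 (-1.56 to -0.75). *Ly6c1* in cluster 12 had 809, 672 and 393 CPM under Vehicle and 901, 1420 and 47.1 CPM under PLX5622, the last from 1 UMI in 12 cells. *Tjp1* in microglia-like cells had 110, 40.3 and 54.7 CPM under Vehicle, a ratio of -1.45 (-1.71 to -1.19) at 7 dpi, the opposite of its ratio in cluster 2. *Slc2a1* in MDM-like cells (monocyte-derived macrophages) had 85.3, 19.2 and 48.3 CPM under Vehicle. Shares of all genes and other scales are not given for the clusters of this paragraph. Whether these differences are particular to the genes named was thus not tested.

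Low counts in other clusters are given per *Cldn5* UMI, beside the same ratio in cluster 2. Where these counts come from, be it the cells, free RNA or mixed droplets, was not tested. In microglia-like cells of the 7 dpi Vehicle library *Ly6c1* and *Slco1a4* had 0.75 and 0.51 UMIs per *Cldn5* UMI, beside 0.93 and 0.38 in cluster 2 of that library. In MDM-like cells the same 2 ratios were 0.75 and 0.42. Among MDM-like cells *Abcb1a* was apart, with 84 UMIs against 93 of *Cldn5*, 0.90 beside 0.23 in cluster 2. Farther apart were *Tjp1*, at 3.63 in microglia-like and 3 in MDM-like cells beside 0.14, and *Slc2a1*, at 1.76 and 4.10 beside 0.32. In T cell-like cells over all libraries *Abcb1a* and *Pecam1* had 3.08 and 3.58 UMIs per *Cldn5* UMI beside 0.25 and 0.08 in cluster 2. These rest on only 12 *Cldn5* UMIs. In astrocyte-like cells, with 32 *Cldn5* UMIs, *Mfsd2a* had 30.1 and *Slc2a1* 22.9 per *Cldn5* UMI, beside 0.04 and 0.36 in cluster 2. Cluster 13 had only 3 *Cldn5* UMIs over all libraries, against 715 of *Abcb1a* and 122 of *Cdh5*. No ratio is given for it.

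Near copies of the genes were low in cluster 2. *Ly6c2* had 0 to 23.3 CPM, *Abcb1b* 0 to 13.5 CPM and *Slco1a5* 0 UMIs in every library, while *Ly6a* had 2903 to 4134 CPM. How reads shared with these copies were counted was not tested, so the levels of *Ly6c1*, *Abcb1a* and *Slco1a4* are uncertain to that extent. Over the 14 clusters, profiles of *Cldn5* and *Slco1a4* had a Pearson r of 0.93, and *Abcb1a* and *Cdh5* of 0.94, as a description over clusters that share libraries. *Tjp1* and *Pecam1* were least alike, at 0.17. Among 12852 genes the most alike were *Prrt4*, *Colgalt2* and *Arhgef15* for *Cldn5* (0.98, 0.97 and 0.97), *Flt4*, *Arhgef15* and *Prrt4* for *Slco1a4* (0.98, 0.98 and 0.97), *Hspa12b*, *Grasp* and *Gpr4* for *Cdh5* (0.98 each) and *Hspa12b*, *Slc52a3* and *Stap2* for *Abcb1a* (0.95, 0.95 and 0.95). For *Ocln* they were *Megf6*, *Rassf9* and *Podxl* (0.97, 0.96 and 0.94), for *Ly6c1* *5430416O09Rik*, *Apold1* and *Tek* (0.97 each), and for *Pecam1* *Gbp3*, *Ly6a* and *Atp10d* (0.93, 0.91 and 0.91). For the remaining 3 genes the most alike were *Wwc2*, *Ptprm* and *0610009O20Rik* for *Tjp1* (0.96, 0.95 and 0.95), *Plekhg5*, *Maob* and *Acacb* for *Slc2a1* (0.94, 0.90 and 0.90), and *Plcb1*, *Slc38a3* and *2610305D13Rik* for *Mfsd2a* (0.96, 0.95 and 0.93).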

How the data were processed

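Single-cell RNA-seq libraries of 6 conditions were used, and bulk RNA-seq of the study was not analysed here. The authors aligned reads to the mouse genome (builds GRCm38 and mm10 in the submitters' processing notes), counted UMIs with Cell Ranger, and filtered and clustered cells with Seurat. The deposited values are raw counts of UMIs per gene and cell, with a cluster number per cell. Counts were summed by cluster and library and scaled to CPM, with exact Poisson intervals at 95%. Log2 ratios have exact conditional binomial intervals, with a floor of 3 counts for a gene at 0, and shares of cells exact Clopper-Pearson intervals. All cover counting error only, and those per reference UMI leave out that of the reference sum. With 1 pooled library per condition no test was made. A comparison covered the genes with 20 or more UMIs when its 2 libraries were added up, and a gene at or past a fold of 2 is called 2-fold lower or higher.

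Depth in cluster 2 was 232514 to 1418075 UMIs per library. A cluster was named where 1 of 14 cell types alone had at least 3 of its markers, and most of them, highest there. Genes named from lists were the 4 with the most UMIs and the highest and lowest ratio at 7 and 28 dpi under Vehicle, with at least 10 UMIs in each library. A list gene that the rule names is not reported here. Other genes named as 2-fold from sham or in the activation list were named after their values were seen. The 10 genes and all lists were chosen with earlier results of these data known. List symbols absent from the table were sought under older names (*Ptrf*, *Sdpr*, *Prkcdbp*, *Mllt4*, *Inadl*, *Gpr124*). Likeness used log2(CPM + 1) means over libraries with at least 10 cells of a cluster, in genes with at least 100 UMIs.

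Doublets were kept, since Scrublet's calls (in scanpy 1.11.5) follow the rate set, 0.8% per 1000 cells. Alternatives were TMM (edgeR 4.0.16) and DESeq2 (1.42.0) factors, a 20-gene pan-endothelial denominator, each cell weighted alike or thinned to 1000 UMIs, filters on cells (500 genes, doublets, myeloid list UMIs) and totals without ribosomal protein genes. The 1% myeloid filter and the alternatives in cluster 4 were chosen after seeing the data. Intervals were tested on simulated data. Python 3.11.15, numpy 2.4.6, scipy 1.17.1 and R 4.3.3 were used.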

Additional observations from a re-analysis of the deposited data

Results flagged for a closer look

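*Slc2a1* in the endothelial-like cluster moved in opposite directions in the 2 diets at 7 dpi over sham, -0.74 under Vehicle and 0.29 under PLX5622 on the log2 scale, with both counting intervals clear of 0. The same held for *Ly6c1*, with -0.58 under Vehicle and 0.27 under PLX5622. With 1 library per group the difference between the diets was not tested. In cells with under 1% of UMIs in the myeloid list the *Slc2a1* ratios were -0.43 and 0.35 and those of *Ly6c1* -0.25 and 0.35. Per pan-endothelial reference UMI *Slc2a1* had -0.18 and 0.39, and *Ly6c1* -0.02 with an interval to 0.06 and 0.37.

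Barcodes of the deposited matrices that are not among the cells of the clustered table also carried barrier transcripts. The 29 left out of the 7 dpi PLX5622 library had 5 UMIs of the 10 genes, all of *Cldn5*, or 312 CPM (101 to 729), against 221 CPM in the other clusters of that library. The 121 left out of the sham Vehicle library had 69.1 CPM against 347, and the 102 of sham PLX5622 had 311 against 820 CPM.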

How the results depend on the processing

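The count of genes highest in cluster 2 (9 or 10 of 10 per library) stayed within 1.5 times under the 6 alternatives run for it (clusters of at least 30 cells or of at least 1 cell, cells with 500 genes, no doublets, each cell weighted alike, cells under 1% of myeloid list UMIs), and a floor of 1 count, totals without ribosomal protein genes and cells with at least 500 genes left all 7 medians within their counting range. The 7 dpi Vehicle median of -0.68 over sham moved to -0.53 with TMM, -0.54 with DESeq2 factors, -0.52 with each cell weighted alike or thinned to 1000 UMIs, -0.45 without doublets, -0.49 in cells with fewer than 3 myeloid list UMIs, -0.36 in cells under 1% and -0.12 per pan-endothelial UMI. The 28 dpi Vehicle median of -0.74 moved to -0.43, -0.44, -0.40 and -0.12 under the last 4. PLX5622 at 28 dpi over sham moved from -0.33 to 0.044 per pan-endothelial UMI, and PLX5622 over Vehicle at 7 dpi from 0.54 to 0.27 without doublets, 0.31, 0.28 and 0.21 in the same order. At 28 dpi it moved from 0.36 to 0.11, 0.012 and 0.077 under the 3 cell filters. The cause of these moves was not tested. Of 70 single ratios 11 changed sign per pan-endothelial UMI, 11 with fewer than 3 myeloid UMIs, 8 when thinned, 6 without doublets, 6 under 1%, and 2 or fewer otherwise, and none of those past 2-fold did.

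No paired analysis was possible because each condition had 1 library, and for the same reason no library was left out in turn. Sham and injured libraries of a diet share 1 sham library for both times, so an error in it moves both ratios. Depth in cluster 2 limits *Ocln* and *Mfsd2a*, counted 42 to 189 times per library.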
